A study of Mus musculus with 15 samples.

Results

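A set of 10 genes that are widely used to mark cancer-associated fibroblasts and tumor stroma was followed in 2 mouse neuroendocrine lung cancer models, as cultured cells and as allograft tumors, and in lung tissue. The genes were Dcn, Lum, Acta2, Fap, Postn, Pdpn, Thy1, S100a4, Fn1 and Cthrc1, chosen by name, which makes 10 of the 55359 genes of the count table, and all 10 were found in it under 1 identifier each. The 46LCNEC line was derived from a lung tumor started by Ad-CMVcre virus and grew attached to the dish, whereas the 57SCLC line was derived from a tumor started by Ad-K5cre virus and grew as floating aggregates. Both tumors arose in QKO mice, which carry floxed alleles that include Rb1 and Trp53 and lack Rbl1 in all cells, so that the cultured cells, the tumors and the mice that received them shared the Rbl1 deletion. The study reports that Rb1 and Trp53 were recombined in the cell lines and that the grafted tumors kept these mutant alleles. Cre virus is described only for the mice of the primary tumors, so tumor cells differ from host and Lung cells in these alleles. 46LCNEC_cell and 57SCLC_cell each comprised 3 cultures named A, B and C. 46LCNEC_allo (tumors 312, 319 and 321) and 57SCLC_allo (tumors 275, 316 and 317) each comprised 3 subcutaneous tumors, grown from the cultured cells in Matrigel under the skin of syngeneic, immunocompetent QKO mice. Lung (CT3, CT4 and CT5) comprised lung tissue of 3 littermates of the recipient mice, whose ages are not given. Each line came from 1 primary tumor, so the spread between samples covers cultures and recipient mice and not independent tumors.

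Fibroblasts build the connective tissue of an organ or a tumor by secreting collagens, proteoglycans and glycoproteins such as fibronectin. In tumors many of them become activated, which is usually recognized by contractile proteins such as smooth muscle actin, by surface proteins such as fibroblast activation protein, and by matrix proteins such as periostin. None of these genes belongs to fibroblasts alone, since pericytes, smooth muscle, endothelium, lung epithelium, T cells or mesenchymal tumor cells make some of them too, and a bulk tumor sample mixes tumor and host RNA of the same species. The cultured cells were grown without a host, so their level of each gene was set beside that of the tumors grown from them. A lower level in bulk tissue can come from fewer cells of a type or from less RNA per cell, and these cannot be told apart here. Likewise, expression that the tumor cells gained under the skin cannot be told apart from host expression.

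All levels below are normalized counts, that is reads per gene divided by a size factor for each sample, and the libraries held between 9480244 and 44876572 counted reads with a median of 26502525. A gene was called higher or lower at an adjusted p of at most 0.01 with at least a 2-fold change, by limma on log2(normalized count + 1) with Benjamini-Hochberg adjustment over all genes tested, and log2 differences are on that scale. The labels were checked with marker lists. The 5 listed neuroendocrine markers summed to between 48308 and 68430 normalized counts in 57SCLC_cell but to between 32.3 and 45.0 in 46LCNEC_cell, and 4 epithelial markers to between 41583 and 46741 against 226 to 238. Cultured 46LCNEC cells instead held between 327773 and 354410 normalized counts of 22 core fibroblast and matrix genes, against 1489 to 2019.6 in 57SCLC_cell, so the 46LCNEC line had little of the epithelial and neuroendocrine markers and much of the matrix genes. The lines were started from dissociated primary tumors, and whether stromal cells of these were carried along in culture was not tested.

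Promoter sequences were printed for the 3 markers that had a RefSeq promoter entry and that were lower in cultured 57SCLC than in cultured 46LCNEC cells, since the results turn most on where these genes are transcribed. Each shows the 250 bases before an annotated start on mouse GRCm38.p6, 5′ to 3′ on the gene's strand, and 4 of the 10 genes matched the table. Capitals mark CArG boxes, the binding element of serum response factor, and the letters TATAAA of a TATA box.
Acta2 (chr19:34255374-34255623, minus strand): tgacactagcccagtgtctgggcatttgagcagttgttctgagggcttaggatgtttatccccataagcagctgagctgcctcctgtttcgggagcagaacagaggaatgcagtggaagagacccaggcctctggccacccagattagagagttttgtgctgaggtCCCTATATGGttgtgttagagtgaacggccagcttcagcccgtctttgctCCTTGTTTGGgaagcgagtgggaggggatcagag
Postn (chr3:54360857-54361106, plus strand): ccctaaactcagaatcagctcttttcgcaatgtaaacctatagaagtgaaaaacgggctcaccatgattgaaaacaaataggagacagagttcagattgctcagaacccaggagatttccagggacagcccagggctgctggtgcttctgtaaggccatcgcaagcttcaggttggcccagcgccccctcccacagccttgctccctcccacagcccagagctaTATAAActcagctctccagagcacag
S100a4 (chr3:90603520-90603769, plus strand): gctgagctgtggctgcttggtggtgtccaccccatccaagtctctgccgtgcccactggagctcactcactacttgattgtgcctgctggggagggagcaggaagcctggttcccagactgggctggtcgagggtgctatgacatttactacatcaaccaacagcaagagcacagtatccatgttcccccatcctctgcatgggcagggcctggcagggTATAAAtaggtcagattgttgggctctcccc
The Acta2 window held 2 CArG boxes, at 34 to 25 and at 84 to 75 bases before the start. A CArG box was counted as CC, 6 bases with at most 1 G or C, and GG, on both strands, and 8.59% of all 32851 promoter windows of this length held one. TATAAA ended 21 bases before this start of Postn and 26 bases before that of S100a4, and 12.4% of all windows held it on either strand. Postn has a second annotated start whose window, like that of Pdpn, held neither motif. Among the 11 windows of Acta2 and the listed contractile genes, 2 held a CArG box (Acta2 and Myl9) and 6 held GGAATG, the core of the TEAD element, which was in 12.6% of all windows. The GGAATG of the Acta2 window, at 146 to 141 bases before the start, did not overlap its CArG boxes, and a match describes the sequence only.

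Dcn and Lum encode decorin and lumican, small leucine-rich proteoglycans that bind collagen fibrils, and lie next to each other on chromosome 10 (GRCm39, Dcn, ENSMUSG00000019929, at 97315275 to 97358155 and Lum, ENSMUSG00000036446, at 97400990 to 97408577). Both were almost absent from the cultured cells of either line and abundant in all tumors. Dcn measured 8.44, 11.04 and 13.8 normalized counts in 46LCNEC_cell A, B and C and 4101, 10947 and 13493 in 46LCNEC_allo tumors 312, 319 and 321. In 57SCLC_cell it was represented by 1 read in 3 libraries, whereas the 57SCLC_allo tumors 275, 316 and 317 held 1106, 612 and 618. Lung held 2332, 3168 and 2105, so that the order was 46LCNEC_allo, Lung, 57SCLC_allo and then the cultured cells, with no overlap between neighbours. The rise from cells to tumors was 9.47 ± 0.44 (SE) log2 in 46LCNEC (adjusted p = 9.69e-06) and 9.32 ± 0.34 in 57SCLC (adjusted p = 5.34e-07, limma).

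Lum had 2 reads in all 46LCNEC_cell libraries together and none in those of 57SCLC_cell. It reached 1899, 3387 and 8259 normalized counts in the 46LCNEC_allo tumors, 213, 239 and 236 in the 57SCLC_allo tumors, and 398, 641 and 203 in Lung. The 57SCLC_allo tumors were the most even group for Lum (229 ± 14.3, SD, n = 3), and their range overlapped that of Lung. With the reads of each group summed and divided by the summed size factors, the 46LCNEC_allo level was 7600.1 times that of the 2 cultured reads, with a 95% counting interval of 2103 to 62763. On the same scale 57SCLC_allo was at least 419-fold higher than the floor of 3 reads over its cultures. Such intervals and floors cover counting error only. The log2 differences were 11.32 ± 0.65 (adjusted p = 2.22e-05) and 7.85 ± 0.27 (adjusted p = 4.07e-07, limma). For both proteoglycans the cultured level was thus under 1% of the tumor level in either line.

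**Figure D1:**
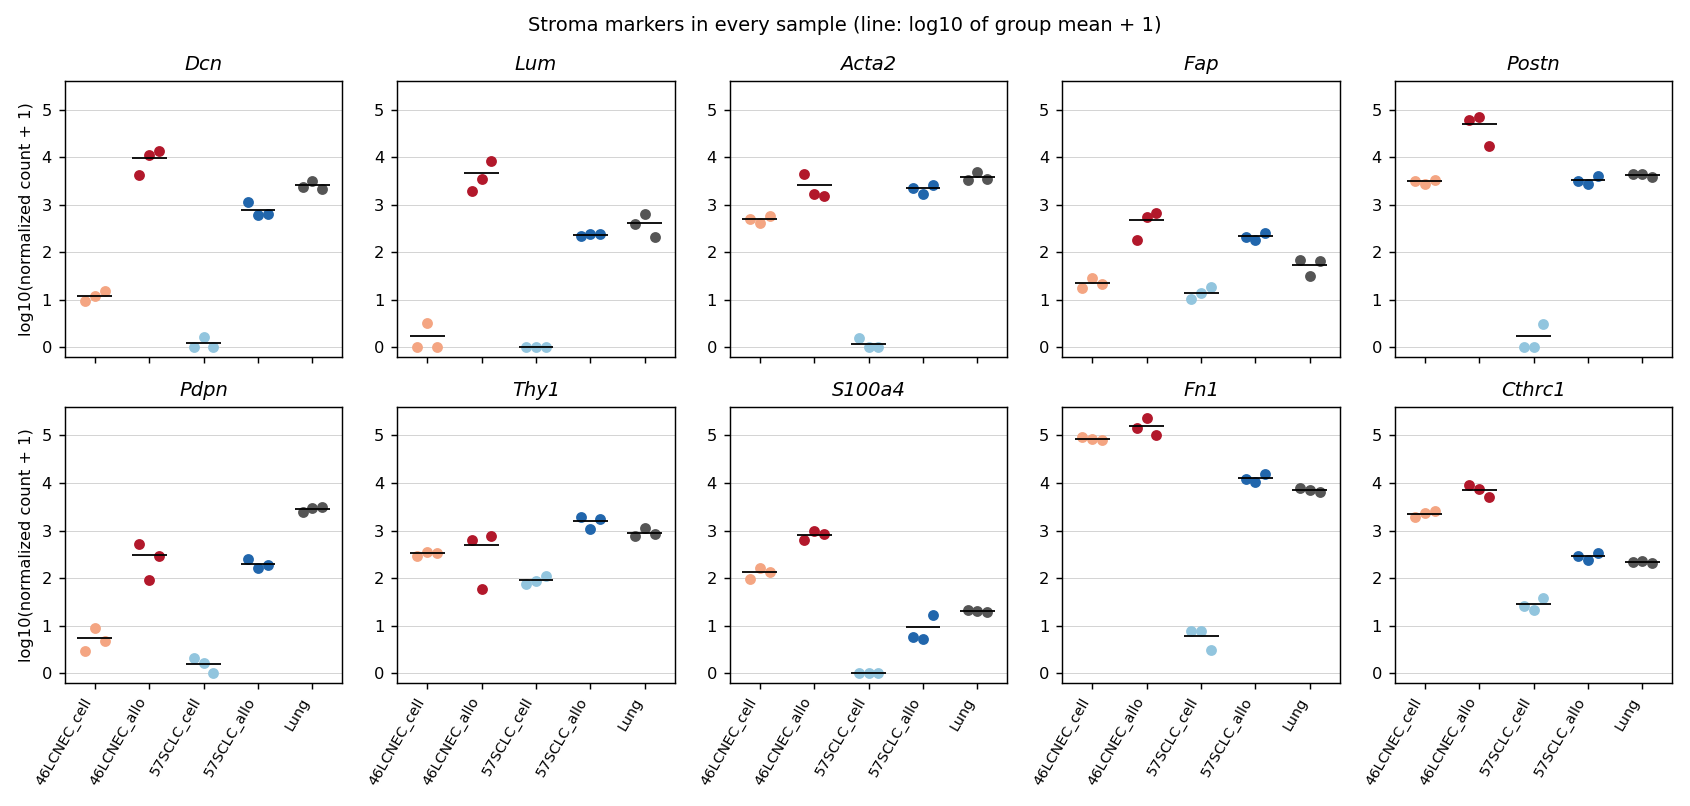
Normalized counts of the 10 stroma markers in each of the 15 samples, as log10(normalized count + 1), with points for samples and lines for group means. Dcn and Lum sit near the bottom in both cultured groups, while Fn1, Postn, Cthrc1, Acta2, Thy1 and S100a4 are well above it in 46LCNEC_cell.

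Acta2 encodes smooth muscle actin, the contractile protein of myofibroblasts, pericytes and smooth muscle, and lies on chromosome 19 (ENSMUSG00000035783, GRCm39, 34217737 to 34232990, minus strand). The ranges of the tumors of the lines overlapped, but the cultured lines were far apart. Acta2 measured 496, 412 and 561 normalized counts in 46LCNEC_cell, and 1 read was found in the 3 libraries of 57SCLC_cell. The tumors held 4505, 1683 and 1502 in 46LCNEC_allo and 2250.2, 1686 and 2617 in 57SCLC_allo, and Lung held 3350.1, 4755 and 3461. Tumor 312 stood above the other 46LCNEC_allo tumors, and the range of this group overlapped those of 57SCLC_allo and of Lung, while the 57SCLC_allo tumors all lay below Lung. Between the cultured lines Acta2 differed by -8.72 ± 0.26 log2 (57SCLC_cell minus 46LCNEC_cell, adjusted p = 3.8e-08), and the tumors differed by -0.07 ± 0.42 (57SCLC_allo minus 46LCNEC_allo, adjusted p = 0.905, limma). The rise from cells to tumors was 2.21 ± 0.40 log2 in 46LCNEC (adjusted p = 0.00311) and 10.86 ± 0.28 in 57SCLC (adjusted p = 1.8e-07). The 46LCNEC call was lost without any 1 of the 3 cultures, with adjusted p between 0.0126 and 0.0169.

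Fn1 encodes fibronectin, a glycoprotein that links cells to the matrix (ENSMUSG00000026193, chromosome 1, GRCm39, 71624673 to 71692419). Per kilobase of exon it was the most abundant of the 10 genes in cultured 46LCNEC cells, with a mean of 5408 normalized counts per kilobase. Fn1 measured 93873, 84522 and 78464 normalized counts in these cultures and 6.55, 6.63 and 2.08 in 57SCLC_cell. The ratio of the means of the cultured lines was 16827. In the tumors Fn1 was at 144382, 237567 and 100215 in 46LCNEC_allo and at 12424, 10446 and 15644 in 57SCLC_allo, against 7795, 7070.1 and 6616 in Lung. Although every 46LCNEC_allo tumor lay above every culture, the difference of 0.82 ± 0.33 log2 did not pass (adjusted p = 0.0697, limma), and without tumor 321 it was called at 1.12 (adjusted p = 0.00999). Fn1 rose by 11.14 ± 0.35 log2 in the 57SCLC_allo tumors (adjusted p = 3.25e-07). All neighbouring groups were separate in the order 46LCNEC_allo, 46LCNEC_cell, 57SCLC_allo, Lung and 57SCLC_cell.

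Cthrc1, a secreted protein with a collagen-like repeat, followed the same order of groups without overlap (ENSMUSG00000054196, chromosome 15, GRCm39, 38940246 to 38950518). Its levels were 1938, 2315 and 2576 normalized counts in 46LCNEC_cell and 8909.9, 7451 and 4956 in 46LCNEC_allo. They were 24.5, 20.5 and 37.5 in 57SCLC_cell, 287, 234 and 343 in 57SCLC_allo, and 212, 232 and 211 in Lung. The rise from cells to tumors was 1.61 ± 0.22 log2 in 46LCNEC (adjusted p = 0.000981) and 3.37 ± 0.27 in 57SCLC (adjusted p = 2.55e-05, limma). The ratio of the mean of 46LCNEC_allo to that of 57SCLC_allo was 24.7 for Cthrc1 and 12.5 for Fn1.

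Postn encodes periostin, a matrix protein of remodelling tissue (ENSMUSG00000027750, chromosome 3, GRCm39, 54268501 to 54298471). It measured 3207, 2748 and 3254 normalized counts in 46LCNEC_cell and 61371, 68474 and 16993 in 46LCNEC_allo. In 57SCLC_cell the gene had 4 reads, all in culture C, while 57SCLC_allo held 3138, 2668 and 3901 and Lung held 4368, 4487 and 3815. Cultured 46LCNEC cells alone therefore carried about as much Postn as whole 57SCLC_allo tumors, whose range overlapped theirs. Postn rose by 3.76 ± 0.49 log2 in 46LCNEC tumors (adjusted p = 0.00078) and by 11.10 ± 0.44 in 57SCLC tumors (adjusted p = 6.6e-07, limma). The size of the 57SCLC value rests on the 4 cultured reads and depends on the pseudocount.

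Fap encodes fibroblast activation protein, a surface protease of activated fibroblasts (ENSMUSG00000000392, chromosome 2, GRCm39, 62331286 to 62404419). It was low in both cultured lines, at 16.9, 27.6 and 20.8 normalized counts in 46LCNEC_cell and 9.27, 12.7 and 17.2 in 57SCLC_cell, with overlapping ranges. The tumors held 180.1, 559 and 665 in 46LCNEC_allo and 211, 179.8 and 249 in 57SCLC_allo, against 65.8, 29.9 and 63.2 in Lung. Fap was the 1 gene of the 10 that was called higher in the tumors of both lines than in Lung, by 2.997 ± 0.57 log2 (adjusted p = 0.00389) and 2.06 ± 0.33 (adjusted p = 0.000716, limma). It also rose from cells to tumors by 4.19 ± 0.50 (adjusted p = 0.000515) and 3.96 ± 0.27 (adjusted p = 1.13e-05). The call of 46LCNEC_allo over Lung was lost without tumor 319 or any 1 Lung library, with adjusted p between 0.0125 and 0.0156.

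Pdpn encodes podoplanin, which is made by activated fibroblasts but also by alveolar type 1 cells, lymphatic endothelium and mesothelium (ENSMUSG00000028583, chromosome 4, GRCm39, 142990871 to 143026143). Lung had the highest levels, at 2482, 2944 and 3175 normalized counts, and the tumors held 522, 90.5 and 293 in 46LCNEC_allo and 247, 161 and 183 in 57SCLC_allo. The cultures held 1.88, 7.73 and 3.84 in 46LCNEC_cell and 3 reads in all in 57SCLC_cell. Pdpn rose by 5.61 ± 0.70 log2 in 46LCNEC tumors (adjusted p = 0.000621) and by 7.02 ± 0.36 in 57SCLC tumors (adjusted p = 2.25e-06), and differed from Lung by -3.56 ± 0.59 (adjusted p = 0.00216) and -3.87 ± 0.17 (adjusted p = 5.66e-07, limma). The call of 46LCNEC_allo against Lung was lost without any 1 Lung library, with adjusted p between 0.0107 and 0.0115. The 5 alveolar type 1 markers summed to between 114354 and 136199 in Lung against 1534 to 3529 in 46LCNEC_allo and 1384 to 1739.8 in 57SCLC_allo, and their part in the Pdpn difference was not tested.

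Thy1 encodes the surface protein CD90 of fibroblasts and T cells (ENSMUSG00000032011, chromosome 9, GRCm39, 43954332 to 43959880). Both cultured lines expressed it, at 293, 361 and 337 normalized counts in 46LCNEC_cell and 74.2, 85.6 and 108 in 57SCLC_cell. The 46LCNEC_allo tumors were uneven, with 634, 56.8 and 779, so that tumor 319 fell below its cultured cells while the other tumors were above them. The 57SCLC_allo tumors held 1925, 1072 and 1742 and Lung held 752, 1126 and 845. Thy1 rose by 4.10 ± 0.24 log2 in 57SCLC tumors (adjusted p = 4.19e-06) and differed by -0.11 ± 0.91 in 46LCNEC tumors (adjusted p = 0.929, limma), where without tumor 319 it was called higher by 1.09 (adjusted p = 0.00165). With edgeR and DESeq2 the 46LCNEC difference was 0.58 and 0.57. The 6 T cell markers summed to between 31.6 and 981 in 46LCNEC_allo, 245 and 366 in 57SCLC_allo and 2547 and 2770.1 in Lung, and their part in Thy1 was not tested.

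S100a4, also called fibroblast-specific protein, encodes a calcium-binding protein of motile mesenchymal cells and some leukocytes (ENSMUSG00000001020, chromosome 3, GRCm39, 90511074 to 90513354). It was highest in the 46LCNEC_allo tumors, at 644, 987 and 837 normalized counts, followed by 46LCNEC_cell at 92.9, 164 and 134. Lung held 20.2, 18.9 and 18.7, 57SCLC_allo held 4.79, 4.25 and 15.9, and no read was counted in 57SCLC_cell. S100a4 rose by 2.67 ± 0.26 log2 in 46LCNEC tumors (adjusted p = 0.000202, limma) and was too low to be tested in 57SCLC, where the level from summed reads was at least 17.1-fold higher in the tumors, against the floor of 3 reads. Levels of this gene may be undercounted, since 92.9% of its span lies within the predicted gene Gm42674 and reads in overlapping genes may not be assigned. Of 1394 protein-coding genes wholly inside another gene, 72.53% were at 0 in all 15 samples, against 22.94% of 9989 genes without overlap and 2.47% of 8827 genes overlapped over less than 50% of their span. Among the 1758 with over 90% of their span inside other genes, to which S100a4 belongs, 63.94% were at 0. Of the spans of the other 9 genes, only those of Acta2 (1.97%) and Fn1 (3.38%) are overlapped among the genes of the count table. In the full annotation, 9.33% of the exon length of Acta2, 2.71% of that of Fn1 and 0.914% of that of Postn lie under genes of the other strand. For S100a4, 33.3% of the exon length is overlapped, by Gm42674 on the same strand.

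To set apart expression that the cultures did not show, the mean cultured level of each gene was expressed as a percentage of the mean level in the tumors. Cultured 57SCLC cells held at most 10% of the mean tumor level for 10 of 10 genes, and cultured 46LCNEC cells for 5 of 10. In 46LCNEC the cultured level was 0.0163% of the tumor level for Lum, 0.117% for Dcn, 1.48% for Pdpn, 4.65% for Fap and 6.27% for Postn. It was 15.8% for S100a4, 19.1% for Acta2, 32.04% for Cthrc1, 53.3% for Fn1 and 67.4% for Thy1, so that for these 5 genes the cultured line by itself held more than 10% of the tumor level. In 57SCLC the highest values were 9.56% for Cthrc1, 6.12% for Fap and 5.65% for Thy1, while Pdpn was at 0.287% and Fn1, Dcn, Postn and Acta2 were between 0.00832% and 0.0396%. Cthrc1 of 57SCLC ranged from 7.83% to 10.8% when any 1 sample was left out. Leaving out any 1 sample kept the 46LCNEC values of Fn1 between 44.8% and 70.0%, and those of Thy1 between 46.7% and 95.5%. The percentages are a description, and they assume that tumor cells kept their cultured level, which was not measured. How many of all genes lie at or under 10% was not counted.

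**Figure D2:**
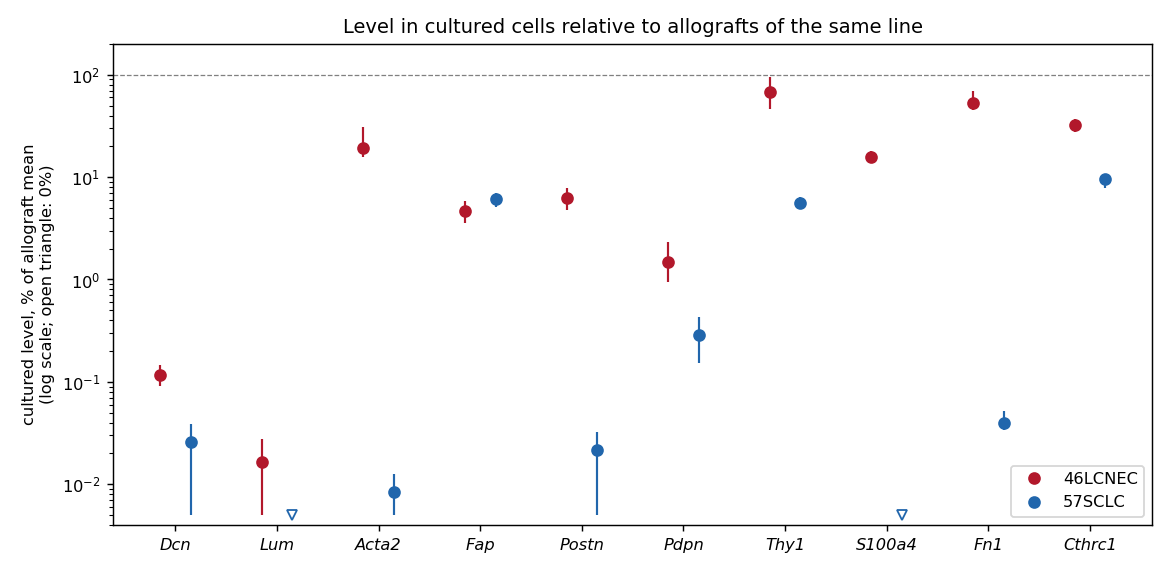
Mean level in cultured cells as a percentage of the mean in the tumors grown from them, on a logarithmic axis, for each marker and line, with vertical bars for the range when 1 sample is left out and a dashed line at 100%. Open triangles mark 0% (Lum and S100a4 in 57SCLC), bars that reach the bottom extend to 0, and Fn1 and Thy1 of 46LCNEC come closest to the line.

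Compared across all genes tested, the rise of the markers from cells to tumors stood beside a background of 14.4% of genes called higher in each line. In 46LCNEC, 8 of 10 markers were called higher, with a median log2 difference of 3.21 over the 10, while 14.4% of 16375 genes were called higher and 8.45% lower. Leaving out any 1 sample gave 6 to 7 markers higher, and 7 to 9 with a filter of 2 samples. In 57SCLC, 9 of the 9 markers that could be tested were called higher with a median of 7.85, while 14.4% of 17078 genes were higher and 2.29% lower. The markers are not replicates of each other, and those near 0 in culture entered the test through the tumors alone. Without any 1 of the 57SCLC_allo tumors only 3 were called, because the others then passed the filter in too few samples, and with a filter of 2 samples, an alternative chosen after seeing the data, 9 were called. The range of the cultures and that of the tumors did not overlap for 9 of 10 genes in 46LCNEC, with Thy1 as the exception, and for 10 of 10 in 57SCLC. The share of all genes without overlap was not counted, so these counts may not be particular to the markers and are not read as a result about them. Over all genes, limma's unadjusted p was under 0.05 for 9654 of 16375 in 46LCNEC and 8445 of 17078 in 57SCLC.

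Between the cultured lines, 6 of the 7 markers that could be tested were lower in 57SCLC_cell (S100a4, Fn1, Postn, Thy1, Acta2 and Cthrc1), with a median of -7.00 over the 7, where 22.2% of 16920 genes were lower and 23.9% higher. S100a4, Fn1, Postn and Acta2 stayed under the filter of 10 normalized counts in every 57SCLC culture. They entered the test through 46LCNEC_cell alone and could only come out lower in 57SCLC_cell. Fap differed by -0.71 ± 0.30 log2 (adjusted p = 0.0581, limma), and Dcn, Lum and Pdpn were too low in both lines. Without any 1 of the 46LCNEC cultures the filter left 2 called, and with a filter of 2 samples 6 to 7 were called. Thy1 differed by -1.89 ± 0.18 (adjusted p = 2.39e-05), the smallest of the 6 called differences. Between the tumors, 6 of 10 were lower in 57SCLC_allo, with a median of -3.54 over the 10, where 14.2% of 17502 genes were lower and 16.1% higher. The log2 differences (57SCLC_allo minus 46LCNEC_allo) and limma's adjusted p were -6.66 ± 0.49 for S100a4 (7.15e-05), -4.60 ± 0.24 for Cthrc1 (2.08e-05), -4.03 ± 0.49 for Lum (0.000554), -3.70 ± 0.52 for Postn (0.00111), -3.58 ± 0.34 for Fn1 (0.000193) and -3.50 ± 0.47 for Dcn (0.000896). Thy1 went the other way by 2.32 ± 0.96 without passing (adjusted p = 0.0781), although every 57SCLC_allo tumor lay above every 46LCNEC_allo tumor. The ranges of the other 3 genes that were not called, Fap, Pdpn and Acta2, overlapped between the tumors of the lines. Of all genes called between the tumors, 53.11% were higher in 57SCLC_allo, and 64.66% when libraries were scaled to their total reads. That scaling moved the median of all genes from 0.015 to 0.29 here, from 0.00028 to 0.24 between the cultured lines and from -0.087 to 0.13 between 57SCLC_allo and Lung, and it changed the direction of Acta2 between the tumors to 0.20.

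The tumors were also set against lung tissue. In 46LCNEC_allo, 6 of 10 markers were higher than in Lung (S100a4, Cthrc1, Fn1, Lum, Postn and Fap) and Pdpn was lower, with a median of 3.15, where 13.4% of 18033 genes were higher and 22.1% lower. Leaving out any 1 sample gave 4 to 7 markers higher. The differences were 5.32 ± 0.23 log2 for S100a4 (adjusted p = 1.12e-05), 4.98 ± 0.22 for Cthrc1 (1.12e-05), 4.401 ± 0.31 for Fn1 (5.88e-05), 3.33 ± 0.62 for Lum (0.00355) and 3.30 ± 0.52 for Postn (0.00167, all limma). Dcn was higher by 1.76 ± 0.44 with an adjusted p of 0.0128, and without tumor 312 by 2.28 with an adjusted p of 0.000544. The Lum call was lost without Lung CT3 (adjusted p = 0.0164) or CT5 (adjusted p = 0.0135). In 57SCLC_allo, Fap was higher, and Dcn (-1.74 ± 0.25, adjusted p = 0.00039) and Pdpn were lower, with a median of -0.55, where 18.9% of 18517 genes were higher and 26.9% lower. Fn1 (0.83 ± 0.15, adjusted p = 0.00133) and Acta2 (-0.82 ± 0.19, adjusted p = 0.00475) had a small p but changed by less than 2-fold. Both comparisons share the same 3 Lung libraries, and Lung is not the tissue under the skin in which the tumors grew.

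**Figure D3:**
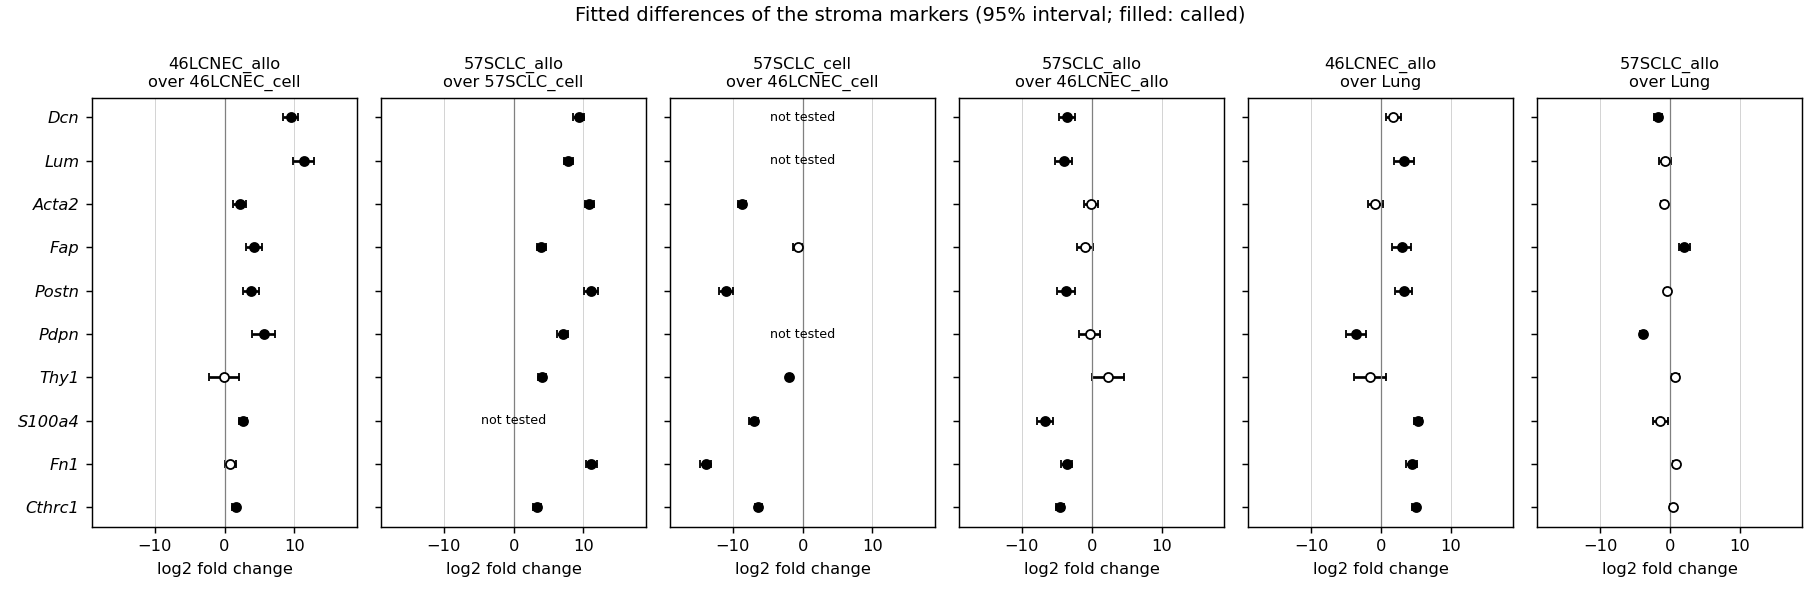
Log2 differences with 95% confidence intervals for the 10 markers in 6 comparisons of cells, tumors and Lung, from limma on log2(normalized count + 1), with filled points for called differences. Most markers lie to the right in the comparisons of tumors with cultured cells and to the left in those of 57SCLC with 46LCNEC.

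The change from cells to tumors was itself compared between the lines in 1 model of 12 samples. The difference of differences was called for 6 of 10 genes, 5 of them with the larger rise in 57SCLC and Lum with the larger rise in 46LCNEC, where 10.8% of 18440 genes were called in the first direction and 6.78% in the second. It was 10.32 ± 0.50 log2 for Fn1 (adjusted p = 4.29e-08), 8.65 ± 0.52 for Acta2 (2.13e-07), 7.34 ± 0.72 for Postn (1.27e-05), 4.21 ± 1.04 for Thy1 (0.00784) and 1.76 ± 0.36 for Cthrc1 (0.00249, all limma). For Lum it was -3.47 ± 0.76 (adjusted p = 0.00386), which rests on counts near 0 in both cultured lines and was not called with a pseudocount of 0.1 (-2.53), edgeR (-1.58) or DESeq2 (-1.70), or without 46LCNEC_cell A or C or tumor 275. The Thy1 call was lost with a pseudocount of 0.1 (adjusted p = 0.0101), without the filter (0.0105) and without any 1 culture or 57SCLC_allo tumor (0.0122 to 0.0212). It was not called for Dcn (-0.15 ± 0.60, adjusted p = 0.865), Fap (-0.23 ± 0.61, adjusted p = 0.794), S100a4 (0.34 ± 0.60, adjusted p = 0.693) or Pdpn (1.42 ± 0.85, adjusted p = 0.211). The median over the 10 genes was 1.59. The sizes for Acta2 and Postn rest on 1 and 4 reads in 57SCLC_cell, so they depend on the pseudocount.

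The listed genes of the same tissue roles gave the wider setting, in counts of called genes of all genes listed, to be read beside the shares over all genes given above for each comparison. Of 22 core fibroblast and matrix genes, 14 were higher and 1 (Fbln2) lower in 46LCNEC_allo than in its cells, 21 were higher in 57SCLC_allo than in its cells, 20 were lower in cultured 57SCLC than in cultured 46LCNEC cells, and 17 were lower in 57SCLC_allo than in 46LCNEC_allo. Against Lung, 16 were higher and 1 lower in 46LCNEC_allo, and 8 were higher and 6 lower in 57SCLC_allo. Among the 22, genes such as Col1a1, Col1a2, Col3a1 and Sparc stayed under 10 normalized counts in 57SCLC_cell. Such genes entered the tests against 57SCLC_cell through the other group alone. The collagen gene Col1a1 averaged 20963 ± 1332 normalized counts (SD, n = 3) in cultured and 223115 ± 104226 in grafted 46LCNEC, 2.72 ± 1.27 in cultured and 17928 ± 4242 in grafted 57SCLC, and 2826 ± 645 in Lung. Its log2 rise was 3.30 in 46LCNEC and 12.26 in 57SCLC, and those of Col1a2 (1.92 and 12.55) and Col3a1 (4.54 and 12.12) were also called. Sparc, which encodes osteonectin, rose by 11.69 in 57SCLC and differed by 0.79 in 46LCNEC (adjusted p = 0.0338, limma). Of the other small leucine-rich proteoglycans, 5 of 9 were higher in 46LCNEC_allo and 4 of 9 in 57SCLC_allo than in the cells, and 3 of 9 (Bgn, Fmod and Prelp) were lower in cultured 57SCLC than 46LCNEC cells. Their log2 rises in 46LCNEC and 57SCLC were 4.18 and 11.44 for Bgn, which encodes biglycan, 5.02 and 7.88 for Fmod, 5.96 and 4.83 for Podn, and 3.49 and 2.9998 for Prelp. Bgn and Fmod stayed under 10 normalized counts in every 57SCLC culture. In tests against 57SCLC_cell they entered through the other group alone and could only come out higher in that group. Between the tumors 4 of 9 were lower in 57SCLC_allo, and against Lung 2 were higher and 1 lower in 46LCNEC_allo and 2 lower in 57SCLC_allo. Of the 9 listed, Ogn, Omd and Aspn were at 0 in all samples. Their spans lie 100% inside another gene, so they share the limit given for S100a4.

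Contractile genes were also counted. Of 12 contractile smooth muscle and myofibroblast genes, 9 were higher in 57SCLC_allo than in its cells, beside 14.4% of all genes in each line, and in 46LCNEC only Mylk was higher, by 1.11 log2, and Cnn1 lower, at -1.47. Cald1, Tpm1 and Smtn differed by -0.15, -0.50 and -0.01 in 46LCNEC without passing, and in 57SCLC Cald1 and Mylk rose by 1.99 and 2.00. The difference between the lines in this change was called for 6 of the 12, each with the larger value in 57SCLC, beside 10.8% of all genes. Of the 12, 9 were lower and Des higher in cultured 57SCLC than in cultured 46LCNEC cells, and between the tumors 4 were lower and 2 (Myh11 and Des) higher in 57SCLC_allo. Against Lung, 8 of 12 were lower in the tumors of each line, and 3 were higher in 46LCNEC_allo. The spans of Tagln, Myl9 and Des lie 94.2% to 100% inside other genes, so their levels share the limit given for S100a4.

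The 12 activated fibroblast matrix genes summed to between 28265 and 29817 normalized counts in 46LCNEC_cell, above the 6922 to 8867 in Lung. Of 12 listed, 3 were higher and 2 lower in 46LCNEC_allo than in its cells, 9 were higher in 57SCLC_allo than in its cells, and 9 were lower and 1 higher in cultured 57SCLC than 46LCNEC cells. Genes such as Tnc, Thbs2, Ltbp2, Tgfbi and Lrrc15 stayed under 10 normalized counts in every 57SCLC culture. In tests against 57SCLC_cell they entered through the other group alone and could only come out higher in that group. Of the list, 7 were higher in 46LCNEC_allo than in Lung, and 6 were higher and 1 lower in 57SCLC_allo than in Lung. Thbs2, which encodes a thrombospondin, exceeded Lung by 6.90 and 5.03 log2, Tnc, which encodes tenascin C, by 4.33 and 2.71, and Col12a1 by 3.40 and 1.64, in 46LCNEC_allo and 57SCLC_allo. Lrrc15, a surface marker of activated fibroblasts that was singled out after its values were seen, exceeded Lung by 5.21 ± 0.69 (adjusted p = 0.000805) and 5.89 ± 0.59 (adjusted p = 4.7e-05, limma). Ltbp2 differed by -1.45 from cells to tumors in 46LCNEC, which was called, and was not called against Lung. Between the tumors, 4 were lower and 1 higher in 57SCLC_allo. The listed Col10a1 was at 0 in all samples, and its span lies 100% inside another gene, so it shares the limit given for S100a4.

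Of 14 inflammatory and adventitial fibroblast genes, 5 were higher in 46LCNEC_allo and 9 in 57SCLC_allo than in the cells, 8 were lower and 2 higher in cultured 57SCLC than 46LCNEC cells, and 6 were lower in 57SCLC_allo than in 46LCNEC_allo. Against Lung, 4 were higher and 4 lower in 46LCNEC_allo, and 2 higher and 7 lower in 57SCLC_allo. Cxcl14, Ccl7, Cxcl1 and Ly6c1 of this list stayed under 10 normalized counts in every 57SCLC culture. In tests against 57SCLC_cell they entered through the other group alone and could only come out higher in that group. The chemokine gene Cxcl12 rose by 1.69 and 5.80 log2 and Cxcl14 by 2.76 and 9.99 from cells to tumors in 46LCNEC and 57SCLC. Cxcl12 was lower in 57SCLC_allo than in Lung, at -4.27, and Clec3b, an adventitial marker, was lower in the tumors of both lines, at -5.94 and -5.53. Of 7 pericyte markers, 6 were higher in 46LCNEC_allo and 7 in 57SCLC_allo than in the cells, and 1 (Notch3) was lower in 57SCLC_allo than in 46LCNEC_allo. Rgs5, a pericyte marker, rose by 4.95 and 11.26 and exceeded Lung by 1.62 and 2.66, while Mcam rose by 3.02 and 3.35. Between the cultured lines Notch3 was higher and Rgs5 lower in 57SCLC_cell, and against Lung 2 pericyte markers were lower in 46LCNEC_allo and 3 in 57SCLC_allo. Rgs5, Kcnj8 and Higd1b stayed under 10 normalized counts in every 57SCLC culture, as did Kcnj8 and Abcc9 in every 46LCNEC culture. In tests against those cultures they entered through the other group alone and could only come out higher in that group. Among the 5 lung fibroblast markers, 4 were lower in the tumors of each line than in Lung and the other, Tcf21, was at 0 in all samples. The span of Tcf21 lies 100% inside another gene, so its 0 shares the limit given for S100a4. Inmt averaged 86199 normalized counts in Lung and at most 1.27 in the tumors, and Npnt, which averaged 29589 in Lung, was also at 22644 in 46LCNEC_cell.

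**Figure D4:**
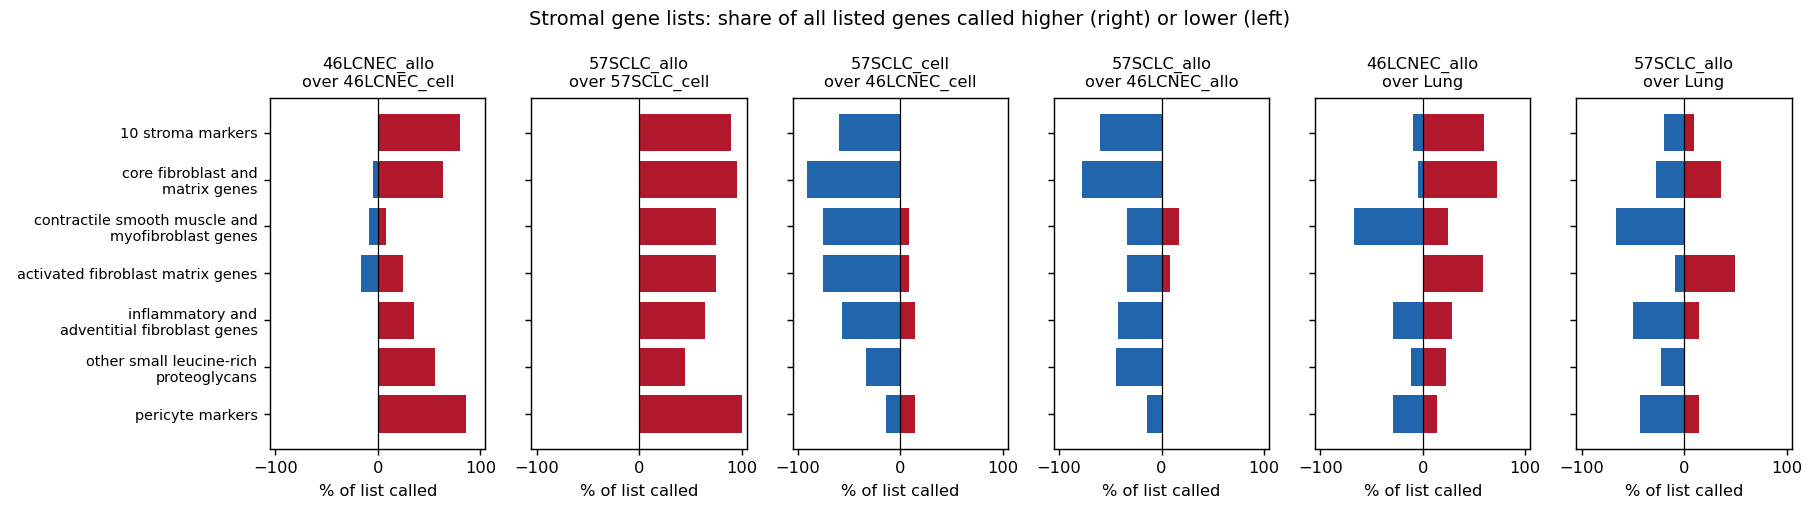
Share of the genes of each stromal list that were called higher (red, to the right) or lower (blue, to the left), in percent of all genes listed, for 6 comparisons by limma. Most lists point right in the comparison of 57SCLC_allo with its cells and left in that of 57SCLC_cell with 46LCNEC_cell.

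Markers of other cell types were summed per library. Blood endothelial markers (6 genes) summed to between 5923 and 9949.6 normalized counts in 46LCNEC_allo, 2809 and 3955 in 57SCLC_allo and 98188 and 109679 in Lung. Macrophage markers (6 genes) summed to between 35681 and 77532 in 46LCNEC_allo, 15509 and 26899.9 in 57SCLC_allo and 88459 and 118006 in Lung, against 309 to 387 in the cultures. Between the tumors, 3 of 6 blood endothelial and 2 of 6 macrophage markers were called lower in 57SCLC_allo. Fat cell markers reached 338 in tumor 312 and at most 14.8 in each of the other tumors. Tumor 312 also had the highest Acta2, Cthrc1 and Pdpn and the lowest Dcn, Lum, Fap and S100a4 of the 46LCNEC_allo tumors. The part of these cells in the marker levels was not tested. Skeletal muscle markers summed to between 27.7 and 73.7 in 46LCNEC_allo and 28.3 and 62.2 in 57SCLC_allo, against 103 to 463 in Lung. Lymphatic endothelial markers summed to between 752 and 854 in 46LCNEC_allo and 6719 and 8795 in 57SCLC_allo, but cultured 57SCLC cells held 8839 to 11095, of which Prox1 made up 8833 to 11086. Mesothelial markers summed to between 4100.1 and 4458 in 46LCNEC_cell, 112 and 1517 in 46LCNEC_allo, 129 and 347 in 57SCLC_allo and 1366 and 2553 in Lung. Of these sums, Msln alone made up 4071 to 4425 in 46LCNEC_cell and Wt1 alone 123 to 340 in 57SCLC_allo. Upk3b and Lrrn4 had at most 3 reads in each 46LCNEC culture.

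The markers did not keep 1 proportion to each other, as their ratios to Dcn within a library show. The ratio of Fap to Dcn was 0.0439, 0.0511 and 0.0493 in the 46LCNEC_allo tumors, 0.190 to 0.402 in 57SCLC_allo and 0.00945 to 0.03003 in Lung, so these groups did not overlap. Acta2 to Dcn was 1.10, 0.154 and 0.111 in 46LCNEC_allo, 2.03 to 4.23 in 57SCLC_allo and 1.44 to 1.64 in Lung. Postn to Dcn was 14.97, 6.25 and 1.26 in the 46LCNEC_allo tumors and 2.84 to 6.31 in those of 57SCLC_allo. Cthrc1 to Dcn was 2.17, 0.681 and 0.367 in 46LCNEC_allo, 0.260 to 0.554 in 57SCLC_allo and 0.0734 to 0.1001 in Lung. The ratios of Acta2, Postn and Cthrc1 varied more between the 46LCNEC_allo tumors than that of Fap, and tumor 312 was highest in all 3. These are descriptions without a test.

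**Figure D5:**
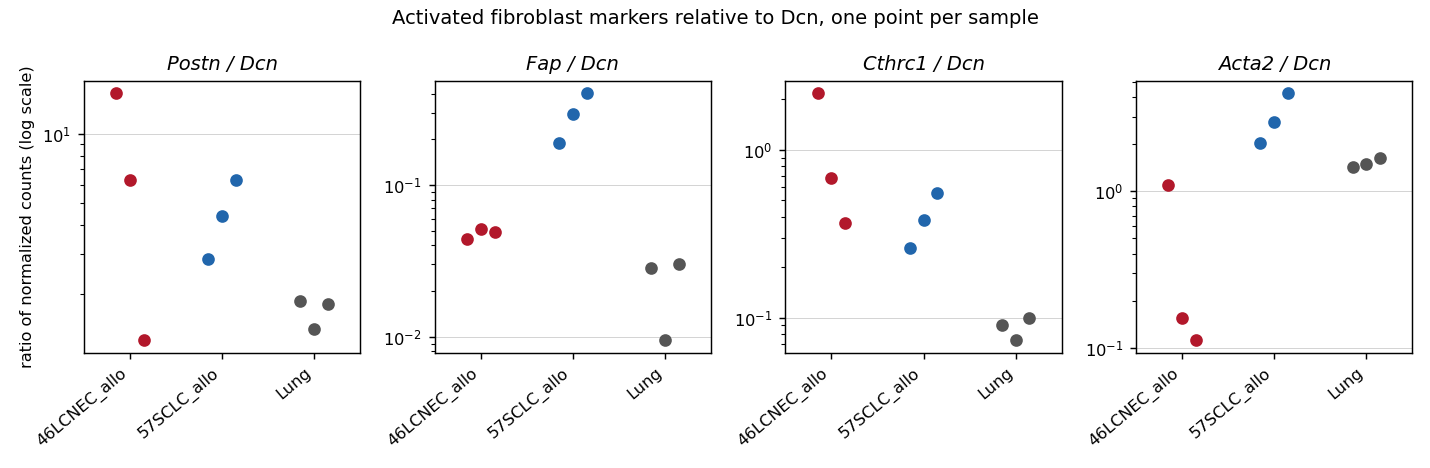
Ratio of Fap, Acta2, Postn and Cthrc1 to Dcn in each tumor and Lung library, on a logarithmic axis. Fap to Dcn separates the 3 groups, and the 46LCNEC_allo tumors spread widely for Acta2 and Postn.

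The 46LCNEC_allo tumors were less alike than the 57SCLC_allo tumors for 9 of the 10 markers, by the coefficient of variation, with S100a4 as the exception. The share of all genes with the larger coefficient in 46LCNEC_allo was not counted, so this may not be particular to the markers. The coefficient was 65.7% against 21.5% for Acta2, 57.0% against 19.2% for Postn, 78.0% against 28.4% for Thy1 and 51.1% against 36.4% for Dcn. Dcn, Lum and Fap were lowest in tumor 312 and highest in tumor 321, whereas Postn and Fn1 were highest in tumor 319 and lowest in tumor 321. Per kilobase of exon, Fn1 led in 46LCNEC_allo (10152 normalized counts per kilobase), followed by Postn (5589) and Cthrc1 (3644), with Fap (79.6) and Pdpn (60.9) lowest. In 57SCLC_allo the order was Fn1 (811), Acta2 (677), Postn (369.5) and Thy1 (352), and in Lung Acta2 (1195), Pdpn (578), Postn (482) and Fn1 (452). The aligner did not split reads at exon junctions, so genes with short exons may be undercounted in this order.

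Across the 15 samples, the genes most like each marker were those with the highest Pearson correlation of log2(normalized count + 1) among 15073 genes, given without a test because the samples share groups. For Dcn they were Csf1r (r = 0.9909), Tnfaip8l2 and Ptpn7, and for Lum Adgre1 (r = 0.9865), Clec5a and Efhd2, of which Csf1r and Adgre1 are macrophage markers. Acta2 was nearest to Serpinh1 (r = 0.9927), Syk and Cxcl14, Postn to Ripk3 (r = 0.9948), Loxl1 and Col6a3, and Fn1 to Ccdc80 (r = 0.9955), Oaf and Sulf1. Fap was nearest to Clca2 (r = 0.9713), Osr2 and Ms4a14, Pdpn to Mcam (r = 0.9882), Trf and Nod1, and Cthrc1 to Kdelr3 (r = 0.9889), Ephb1 and Slc38a6. S100a4 was nearest to Ubtd1 (r = 0.9851), Maged2 and P3h1, and Thy1, with the weakest match, to Bhlhe22 (r = 0.9200), Plac8 and Sfrp1. Among the 10 markers, S100a4 and Cthrc1 (r = 0.9749), Dcn and Lum (r = 0.9717) and Postn and Fn1 (r = 0.9588) were close, and Thy1 and S100a4 (r = 0.1371) were the least alike.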

How the data were processed

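Poly-A RNA of 15 samples was sequenced as paired 150-base reads. Per the labels and the study's methods, the authors aligned reads to GRCm39 with Rbowtie2, which does not split reads at exon junctions, counted them with featureCounts on GENCODE release 27 of the mouse annotation and normalized them with DESeq2. Strand and multiple-mapping settings are not given in the sources used here. The deposited values are therefore a signal, that is counts divided by 1 size factor per sample, for 55359 genes, of which 25369 were at 0 in all samples. Dividing by each sample's smallest step returned whole reads (tolerance 0.001), which gave the depths. The automatic test of this step could not be applied to Lung CT4, whose step is close to 1, but its recovered reads were used in the same way. One further allele of the mice is not reported here.

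Groups were taken from the sample titles. The main test was limma 3.58.1 with trend (R 4.3.3) on log2(normalized count + 1), in the 6 samples of a pair of groups or the 12 of the interaction, after removal of genes that did not reach 10 normalized counts in 3 or more samples, with Benjamini-Hochberg adjustment over the rest. Calls required an adjusted p no greater than 0.01 together with a log2 difference of 1 or more in size. Replicates of a group were separate cultures or animals, and p-values for a line measure only the spread among them. Alternatives were pseudocounts of 0.1 and 5, no filter, edgeR 4.0.16 (quasi-likelihood) and DESeq2 1.42.0 on the recovered reads, library size scaling, all 15 samples in 1 fit, an adjusted p of 0.05, a replicate block and leaving out each sample. A leave-one-out run with a filter of 2 samples was chosen after seeing the data. The code was tested on simulated data.

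Counting intervals are exact at 95% and the floor for a gene without reads is 3 reads over the group. Coordinates and exon lengths came from GENCODE release 39 of the mouse annotation (GRCm39), in which 54749 identifiers were found, and promoters from RefSeq (GRCm38.p6). Named genes are the 10 markers, the 3 genes most correlated with each among genes with a mean of at least 50 normalized counts, and up to 4 genes with the highest mean of each stromal list. Outside this rule, Fbln2, Cnn1, Des, Myh11 and Lrrc15 were named after their calls or values were seen. Other listed genes were named for counts near or at 0, for overlap with another gene or for their part in a sum. The markers and the lists of other stromal and cell type genes were chosen with earlier results of these data known. Of 138 listed genes, 8 were at 0 in all samples. Of these, Col10a1, Ogn, Omd, Aspn, Tcf21 and Ccl21a have spans 100% inside other genes, unlike Ccl2 (0%) and Acta1 (12.6%).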

Additional observations from a re-analysis of the deposited data

Results flagged for a closer look

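For 6 of the 10 stroma markers the change from cultured cells to allograft tumors differed between the lines, by the interaction term of limma over 12 samples. The difference, as the log2 change of 57SCLC minus that of 46LCNEC, was 10.32 for Fn1, 8.65 for Acta2, 7.34 for Postn, 4.21 for Thy1, 1.76 for Cthrc1 and -3.47 for Lum. The cultured mean is given as a percentage of the tumor mean, first for 46LCNEC and then for 57SCLC. It was 53.3% and 0.0396% for Fn1, 19.1% and 0.00832% for Acta2, and 6.27% and 0.0215% for Postn. For Thy1 it was 67.4% and 5.65%, for Cthrc1 32.04% and 9.56%, and for Lum 0.0163% and 0%. The values for Lum and Thy1 depended on the settings and samples named in the report. No explanation was tested.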

How the results depend on the processing

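Of the log2 differences of single markers under the settings that kept all samples, 512 kept their direction and side of the threshold, 8 turned direction, 9 passed it newly and 6 no longer passed. Those that turned were Thy1 in 46LCNEC_allo over its cells (edgeR 0.58, DESeq2 0.57), Acta2 between the tumors (library size scaling 0.20), and in the interaction Dcn (pseudocount 0.1, 2.34; edgeR 1.65; DESeq2 2.17; library size scaling 0.020) and S100a4 (pseudocount 5, -1.32). None of these was called in the main test. S100a4 in the interaction was called with a pseudocount of 0.1 (3.45, adjusted p = 0.00282). The number of markers called moved by over 1.5 times in 3 comparisons, to 1 higher in 57SCLC_allo than in 46LCNEC_allo with all 15 samples (Thy1), to 2 higher in 57SCLC_allo than in Lung with library size scaling (Fn1 added), and to 0 with the larger rise in 46LCNEC with a pseudocount of 0.1, edgeR and DESeq2 (Lum lost). Smaller moves were 7 in place of 6 higher in 46LCNEC_allo than in Lung at an adjusted p of 0.05, with edgeR, DESeq2 and all 15 samples (Dcn), 5 in place of 6 lower in 57SCLC_cell with all 15 samples (Thy1), and the loss of Thy1 in the interaction with a pseudocount of 0.1 and without the filter.

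Leaving out 1 sample gave 3 to 9 markers higher in 57SCLC_allo than in its cells and 2 to 6 lower in 57SCLC_cell than in 46LCNEC_cell. The 3 and 2 came from leaving out a sample of the group that expresses them, since a gene near 0 in the other group then had too few samples to pass the filter. With the filter of 2 samples, chosen after seeing the data, the counts were 9 to 9 and 6 to 7. It gave 0 to 2 lower in 46LCNEC_allo than in Lung (0 without any 1 Lung library, 2 without tumor 312), 1 to 2 higher in 57SCLC_allo than in Lung (2 without tumor 316), and 0 to 1 with the larger rise in 46LCNEC. It gave log2 differences of -0.78 to 1.09 for Thy1 in 46LCNEC_allo over its cells, -0.36 to 0.43 for Acta2 and -1.01 to 0.25 for Pdpn between the tumors, and interactions of -0.67 to 0.18 for Dcn, -0.82 to 0.12 for Fap and -0.20 to 0.64 for S100a4. Further calls made without 1 sample were Fn1 in 46LCNEC_allo over its cells without tumor 321 (1.12), Fap between the tumors without tumor 312 (-1.53), and against Lung Acta2 in 46LCNEC_allo without tumor 312 (-1.26), Thy1 without tumor 316 (1.03), S100a4 without tumor 317 (-1.88) and Lum without CT5 (-1.14) in 57SCLC_allo. Dcn in 46LCNEC_allo over Lung also passed with edgeR (adjusted p = 0.00757), DESeq2 (7.2e-06) and all 15 samples (0.00115), and Thy1 between the cultured lines no longer passed with all 15 samples (0.0222).

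Cultures of the lines share the letters A, B and C, but the correlations of same-letter deviations were 0.18, -0.19 and 0.00047 over 13270 genes, so the letters do not pair them. With the replicate block 6 markers were again lower in 57SCLC_cell, and 4041 genes were higher and 3756 lower against 4043 and 3756 without it. Over all genes only leaving out a sample moved a count of calls by over 1.5 times, for example to 954 to 1179 genes higher in 57SCLC_allo than in its cells without 1 of its tumors (2451 with all) and to 2019 to 2055 lower in 46LCNEC_allo than in Lung without 1 Lung library (3987 with all). Depth limits the values of Dcn, Lum, Acta2, Postn, Pdpn and S100a4 in 57SCLC_cell, which had 0 to 4 reads per gene.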
